A study of Mus musculus with 28 samples.

Results

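Transient promoter contacts, seen 1h and 12h after the start of a Pre-B cell to macrophage conversion but neither before it nor at its end, were drawn from 4 lists of Promoter Capture Hi-C (PCHi-C) interactions. PCHi-C enriches Hi-C ligation products for restriction fragments that carry gene promoters, called baits, and lists the fragments they touch. A contact was counted as transient when the same pair of 1 bait and 1 non-bait fragment, 50 kb to 1 Mb apart between midpoints on one chromosome, was present in both the 1h and the 12h list and absent from both the 0h and the 48h list. There were 6511 such contacts among 203210 contacts of this kind in any list and 273644 contacts of every kind. They joined 3867 baits to 6001 non-bait fragments.

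The cells were of the C10 line, a mouse Pre-B line derived from HAFTL cells that carries a transgene of CEBPalpha-ER, the rat C/EBPα protein fused to an estrogen receptor domain that moves to the nucleus when estradiol is given. All libraries came from this one line, the 0h cells included, so the controls carried the transgene too. The labels state induction with 100 nM β-estradiol, 10 nM IL-3 and CSF-1, sampled at 0h, 1h, 12h and 48h. RNA-seq had 3 libraries at each time point and PCHi-C had 2 replicates that the authors pooled into 1 list for each time point, so no contact has a replicate error. The labelled cell type matched its markers in the RNA: 8 Pre-B genes summed to 277 to 312 TPM at 0h and 27.0 to 38.1 TPM at 48h, 8 macrophage genes went from 12.0 to 14.4 TPM to 639 to 762 TPM, all 4 fibroblast genes were listed at 0, and the T cell and erythroid lists reached at most 0.11 TPM. A list of 4 neutrophil genes, with S100a9 and Mpo at 0 throughout, was at 0 in the libraries of 0h and 1h and summed to 0.88 to 2.87 TPM (12h) and 0.92 to 2.85 TPM (48h), and its part in the results was not tested. In these bulk libraries fewer cells of a type and less RNA per cell cannot be told apart.

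C/EBPα is a myeloid transcription factor that binds enhancers of macrophage genes and represses the B cell programme. Enhancers act on promoters over long distances, and contacts between them can be measured as ligation between distant fragments. The RNA libraries below were used to ask whether genes whose promoters held such contacts changed their RNA at the same times. The RNA did not choose the contacts, whereas the contact lists did, so every statement on the contacts is a description.

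Some of the sequences at the ends of these contacts are given first. The deposited fragments are on mm10, and all 115384 fragments in contacts of this kind were bounded by a HindIII site (AAGCTT) at both ends on GRCm38.p6, the same assembly. The ends of 3 fragments are shown because each fragment had transient contacts to 4 different baits, the most of any non-bait fragment, and a further end because its fragment lies in a run of 4 adjoining fragments that touched the bait of Ddx5 and Cep95 at 1h and 12h alone. The first is chr7:19155180-19155479, reached from the baits of Dmpk, Gpr4, Vasp and Ercc1. The second is chr12:17277905-17278204, reached from those of Pqlc3, Nol10, Gm22303 and 2410004P03Rik. The third is chr15:89265149-89265448, inside Ppp6r2 and reached from those of Creld2, Hdac10, Sbf1 and Tymp. The Ddx5 fragment end is chr11:106967686-106967985. All are on the plus strand, and capitals mark what is left of the HindIII site and any letters that matched a searched motif.
Shared fragment on chromosome 7: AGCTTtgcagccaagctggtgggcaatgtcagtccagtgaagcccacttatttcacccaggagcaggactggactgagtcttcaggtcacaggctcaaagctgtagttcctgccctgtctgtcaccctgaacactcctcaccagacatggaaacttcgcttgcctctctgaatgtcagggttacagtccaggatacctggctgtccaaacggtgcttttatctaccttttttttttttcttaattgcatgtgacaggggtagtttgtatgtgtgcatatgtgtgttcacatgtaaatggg
Shared fragment on chromosome 12: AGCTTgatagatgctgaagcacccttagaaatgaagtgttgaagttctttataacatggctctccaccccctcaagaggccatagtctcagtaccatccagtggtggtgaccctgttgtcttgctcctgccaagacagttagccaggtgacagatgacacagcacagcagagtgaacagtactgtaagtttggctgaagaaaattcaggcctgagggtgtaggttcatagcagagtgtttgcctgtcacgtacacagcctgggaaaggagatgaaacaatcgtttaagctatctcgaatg
Shared fragment on chromosome 15: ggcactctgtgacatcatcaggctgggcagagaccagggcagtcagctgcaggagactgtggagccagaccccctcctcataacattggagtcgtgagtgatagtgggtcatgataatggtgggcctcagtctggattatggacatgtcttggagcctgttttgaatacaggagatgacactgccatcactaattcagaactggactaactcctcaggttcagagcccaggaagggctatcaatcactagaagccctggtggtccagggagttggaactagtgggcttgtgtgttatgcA
Ddx5 fragment on chromosome 11: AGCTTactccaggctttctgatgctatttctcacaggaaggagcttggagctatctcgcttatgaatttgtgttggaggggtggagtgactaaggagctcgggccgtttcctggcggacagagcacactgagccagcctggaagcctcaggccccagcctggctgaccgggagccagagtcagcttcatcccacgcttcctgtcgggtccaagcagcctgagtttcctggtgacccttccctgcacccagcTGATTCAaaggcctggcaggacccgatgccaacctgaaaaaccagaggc
Beyond the cut site, capitals occur in the Ddx5 fragment alone, where 7 bases match the AP-1 motif TGANTCA.

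The promoters of 5 genes are shown because their RNA is described below and their start lies in a bait with a transient contact. They are RefSeq promoters on GRCm38.p6, read along the gene's strand and limited to bases outside annotated UTRs. Creld2 is chr15:88819396-88819645, Atp6v0a1 is chr11:101010148-101010447, Mmp8 is chr9:7558179-7558455, Mmp12 is chr9:7344147-7344380 and Il1rn is chr2:24336610-24336852, all on the plus strand. The Atp6v0a1 stretch lies inside the annotated gene, which begins at 101009452, so it belongs to an internal start. Capitals mark matches to the C/EBP motif TTGCNNAA, the PU.1 motif GAGGAAGT or the AP-1 motif on either strand.
Creld2 promoter: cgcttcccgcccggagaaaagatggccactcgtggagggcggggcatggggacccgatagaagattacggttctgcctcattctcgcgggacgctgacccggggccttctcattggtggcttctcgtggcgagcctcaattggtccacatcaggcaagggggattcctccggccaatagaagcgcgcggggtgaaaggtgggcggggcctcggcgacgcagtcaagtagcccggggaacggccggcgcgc
Atp6v0a1 promoter: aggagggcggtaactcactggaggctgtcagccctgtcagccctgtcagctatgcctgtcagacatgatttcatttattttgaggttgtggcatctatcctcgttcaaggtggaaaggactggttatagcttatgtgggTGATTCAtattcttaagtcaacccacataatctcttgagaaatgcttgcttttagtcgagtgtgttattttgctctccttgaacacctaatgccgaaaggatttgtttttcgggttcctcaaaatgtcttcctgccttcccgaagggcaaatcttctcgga
Mmp8 promoter: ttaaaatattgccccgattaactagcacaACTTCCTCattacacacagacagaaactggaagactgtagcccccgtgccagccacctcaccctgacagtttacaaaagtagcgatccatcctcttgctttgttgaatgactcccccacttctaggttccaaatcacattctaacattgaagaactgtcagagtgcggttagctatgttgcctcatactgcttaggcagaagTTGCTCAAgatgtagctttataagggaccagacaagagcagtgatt
Mmp12 promoter: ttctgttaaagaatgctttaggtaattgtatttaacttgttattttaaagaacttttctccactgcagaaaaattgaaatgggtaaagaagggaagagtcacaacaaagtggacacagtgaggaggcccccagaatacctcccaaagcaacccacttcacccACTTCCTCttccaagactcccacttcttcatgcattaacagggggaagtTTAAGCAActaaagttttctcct
Il1rn promoter: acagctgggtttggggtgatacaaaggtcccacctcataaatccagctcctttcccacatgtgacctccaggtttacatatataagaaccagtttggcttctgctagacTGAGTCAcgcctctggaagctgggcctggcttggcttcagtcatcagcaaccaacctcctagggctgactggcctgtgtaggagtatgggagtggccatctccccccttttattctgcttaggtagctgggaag
The 2 matrix metalloproteinase promoters each held 1 C/EBP and 1 PU.1 match, Atp6v0a1 and Il1rn each held 1 AP-1 match, and Creld2 held none of the searched motifs. A match is only a run of letters and was not set against binding data.

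Transient contacts were a small class. They made up 3.20% of contacts of this kind, 6.65% of the 97977 in the 1h list and 6.94% of the 93765 in the 12h list. Of the 53484 contacts present at both 1h and 12h, 12.2% were in neither other list, whereas 16.0% of the 56122 contacts present at both 0h and 48h were missing from both 1h and 12h. The opposite pattern, 0h and 48h alone, held 8953 contacts, and 33316 contacts were in all 4 lists. Each list keeps only contacts past a calling threshold, so absence from a list does not mean that the fragments never met.

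**Figure D1:**
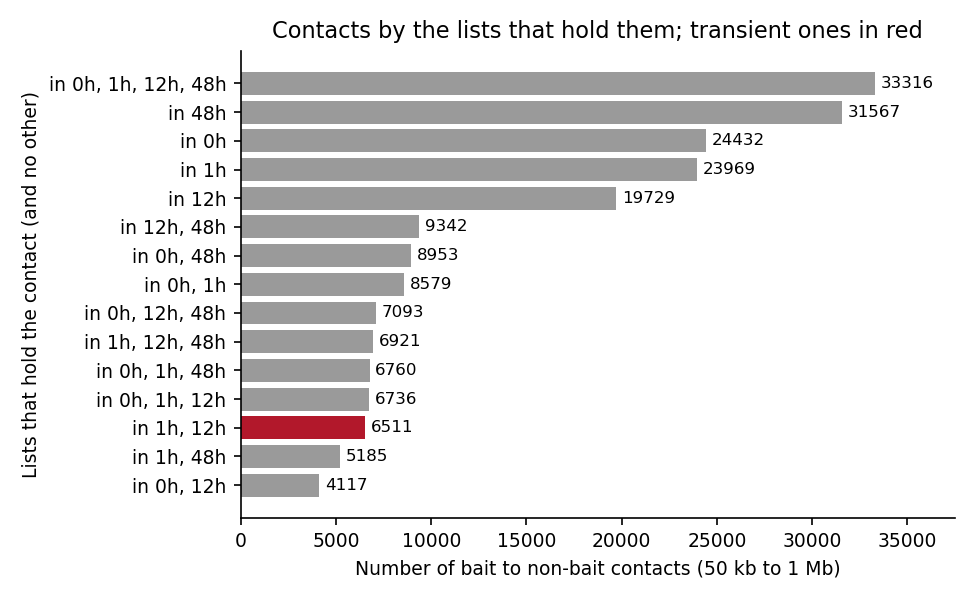
Number of bait to non-bait contacts (x axis) for each combination of lists that holds them (y axis), with transient contacts in red. The transient class held 6511 contacts, more than the classes of 1h and 48h (5185) and of 0h and 12h (4117) and fewer than any other.

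The fragments lay a median of 196 kb apart (quartiles 123 and 302 kb). The values of the 1h and 12h lists are whole numbers, read here as read pairs because bait to bait contacts carried the same number in both directions in nearly every case and the numbers fell with distance. Transient contacts had a median of 15 read pairs at 1h (4 to 73) and 11 at 12h (4 to 61). At 100 to 200 kb their medians were 17 at 1h and 12 at 12h, against 23 and 17 for contacts in all 4 lists, 18 and 13 for those also listed at 0h and 19 and 14 for those also listed at 48h. The gap to the contacts of all 4 lists was present in each of the 5 distance ranges and in both lists. A contact is listed when it passes the calling threshold, so the choice by lists favours this order. Just inside the 50 kb limit, contacts at 50.0, 50.1 and 50.2 kb had 14, 41 and 27 read pairs at 1h, and just outside it, those at 49.9, 49.9 and 49.8 kb had 32, 43 and 32. Just inside 1 Mb, contacts at 998, 995 and 995 kb had 10, 5 and 10, and just outside it, those at 1011, 1012 and 1018 kb had 5, 8 and 13.

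**Figure D2:**
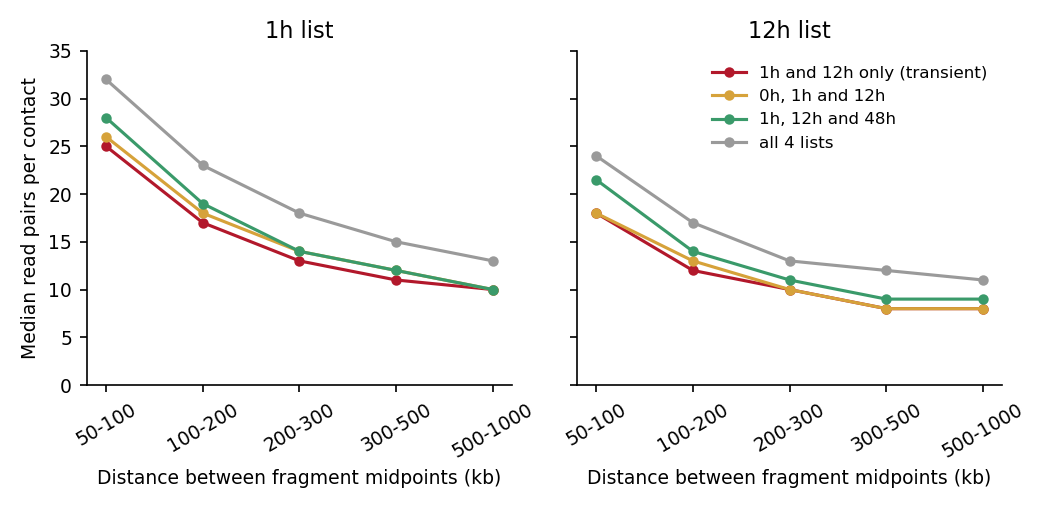
Median read pairs per contact (y axis) against the distance between fragment midpoints (x axis, kb) in the 1h list (left) and the 12h list (right), for transient contacts (red) and for contacts that were also in the 0h list, the 48h list or both. Contacts in all 4 lists are highest in every distance range, an order that the choice by lists favours.

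Most transient contacts had close company in the lists that lacked them. The same bait had a 0h contact within 10 kb of the non-bait fragment in 76.5% of cases and a 48h contact in 73.9%, and the fragment directly next to it was in contact in 47.0% and 45.0%. Both ends of the time course lacked any such nearby contact for 870 transient contacts (13.4%), held by 768 baits. Contacts of 0h and 48h alone were much alike. Their bait had a contact within 10 kb in 75.9% of cases at 1h and 78.5% at 12h, and an adjoining one in 44.6% and 46.8%. Close company was therefore not particular to transient contacts. Of all 6511, 124 belonged to baits with no other contact on their chromosome at 0h, 133 to baits with none at 48h and 46 to baits with none at either. Transient fragments were seldom next to each other: 526 (8.08%) adjoined another transient fragment of the same bait, in 239 runs of 2 fragments and 15 runs of 3 or 4. The runs of 4 fragments belonged to Msn on the X chromosome, Gm24837 on chromosome 4, and Ddx5 and Cep95 on chromosome 11.

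The contacts were spread over many baits. Of the 3867 baits, 2417 had 1 transient contact, 846 had 2, 469 had 3 or 4 and 135 had 5 or more, the last holding 860 contacts. Baits with more contacts of any kind had a transient one more often, from 4.74% of baits with 1 to 4 contacts to 67.3% of baits with 40 or more, but the share of a bait group's contacts that was transient stayed between 2.39% and 3.51%. Protein-coding starts of 2 or more genes lay on 14.7% of baits with a transient contact and 11.3% of baits with none. By chromosome the share was 4.18% on chromosome 7, 3.82% on 8 and 3.69% on 19, and 2.38% on chromosome 6. The 1 Mb window with most transient contacts was 30 to 31 Mb of chromosome 7 (50 of 1156), and the highest share among the 10 windows with most was 18.1% (34 of 188), at 21 to 22 Mb of chromosome 12.

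That window holds the bait with most transient contacts, chr12:21285222-21291864, with 20 of 89. It carries the divergent starts of Cpsf3, which encodes the endonuclease that cuts pre-mRNA for polyadenylation, and Itgb1bp1, a regulator of integrin signalling. The bait had 19 contacts at 0h, 89 (1h), 32 (12h) and 5 (48h), so all 89 of its contacts were in the 1h list. Its transient contacts covered both sides, inside Asap2 on one and across Adam17 and Ywhaq on the other, at 56.5 to 188 kb. A neighbouring bait that also holds a start of Cpsf3 added 6, of which 5 reached Ywhaq, so that the gene had 26.

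Creld2, an endoplasmic reticulum stress protein, and Alg12, a mannosyltransferase of N-glycan assembly, share the bait chr15:88818756-88820767, with 12 transient contacts of 70. It had 29, 58, 42 and 8 contacts at 0h, 1h, 12h and 48h. Its transient contacts ran in one direction from 70.2 to 603 kb, the nearest with 27 read pairs at 1h and 23 at 12h in Ttll8, and the farthest with 9 and 6 at Cpt1b. Cdc37, a co-chaperone of Hsp90 that loads kinases, had 11 of 59, of which 3 fell in Dnmt1, the maintenance DNA methyltransferase. The bait of Ddx5, an RNA helicase, and Cep95 had the highest transient share of those with 9 or more, 9 of 22 (40.9%), and 3, 16, 16 and 3 contacts in the 4 lists. Of its 9, 5 lay between 176 and 190 kb away in a stretch of chromosome 11 from 106957013 to 106977698, with 10 to 14 read pairs at 1h and 9 to 14 at 12h. The fragments of this stretch were at least 9659 bp from any 0h contact of the bait, while the last of them adjoined a 48h contact.

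**Figure D3:**
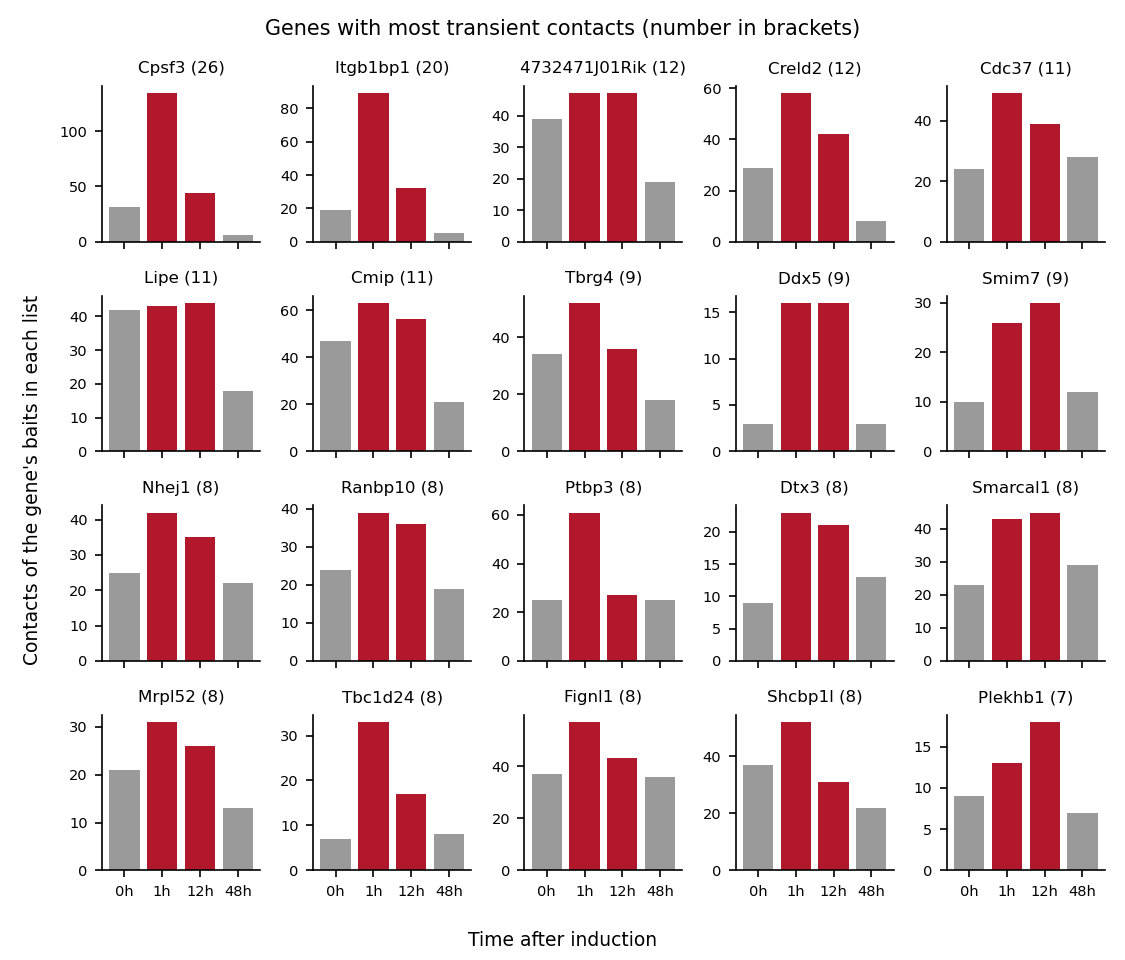
Contacts of a gene's baits at 50 kb to 1 Mb (y axis) in each list (x axis, time after induction) for the 20 tested genes with most transient contacts, whose number is in brackets, with 1h and 12h in red. In 19 of the 20 genes both red bars exceed both grey bars, a pattern that the choice of genes favours. Cpsf3 and Itgb1bp1 share a bait, as do 4732471J01Rik and Lipe, so their bars count some of the same contacts.

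The contacts with most read pairs lay near the lower distance limit. Tekt4, a tektin of sperm flagella, headed them with 62 read pairs at 1h and 61 at 12h to an exonic fragment 74.2 kb away, followed by Cdhr3 (62 and 56, 72.3 kb), Ccdc102a (68 and 46, 50.5 kb), H13 (62 and 50, 57.8 kb) and Cadm4 (73 and 38, 53.5 kb). Each of these had a 48h contact of the same bait to an adjoining fragment. Among contacts with no such neighbour within 10 kb at 0h or 48h, the highest were at a bait of chromosome 4 with no annotated gene start (61 and 49), 9130409I23Rik (63 and 41), Sft2d2, a protein of Golgi transport (58 and 39), and Tbl1xr1, a corepressor subunit (45 and 38).

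Non-bait fragments rarely served several baits. Transient contacts to 2 or more baits were held by 447 of the 6001, and to 4 baits, the highest number, by 4. Of these, 3 are printed above, and the other is an intronic fragment on chromosome 19 (chr19:10651871-10652659), reached from the baits of Cd6, a T cell surface receptor, Tmem132a, Prpf19 and Ccdc86. Of the next in order, with 3 baits each, one joined the homeobox genes Hoxc9, Hoxc8 and Hoxc5 to a fragment between genes on chromosome 15, and one joined Lipe, Zfp526 and 4732471J01Rik to an exonic fragment on chromosome 7.

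By annotation, the fragment at the far end held an exon in 46.8% of transient contacts, lay in an intron in 25.9% and between genes in 27.3%, and held a transcription start site in 16.3%. The corresponding shares were 40.7%, 31.1%, 28.3% and 12.1% for contacts in the 0h and 48h lists alone, and 42.9%, 28.0%, 29.0% and 13.8% for contacts in all 4 lists. GC content followed the same order. The 6001 non-bait fragments of transient contacts had 46.3% GC, the 8215 of contacts at 0h and 48h alone 43.0% and the 23688 of contacts in all 4 lists 44.7%. Contacts of the 1h list alone (45.6%) and of 0h, 1h and 12h (45.9%) were also high. Those of 0h and 1h had 45.4%, those of 12h and 48h 44.1% and those of 0h, 12h and 48h 43.5%. The far fragment held an exon in 44.9% of contacts of 0h and 1h and 41.1% of those of 12h and 48h. In GC content, contacts of 12h alone (45.2%), of 0h and 12h (44.9%) and of 1h, 12h and 48h (45.2%) lay above those in all 4 lists. GC content and exon share were thus high in some classes of the 12h list and not in all. The part of GC content and annotation in the pattern was not tested.

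Motif matches were counted on both strands in the whole fragments. The C/EBP motif TTGCNNAA occurred 38.7 times per 100 kb in the far fragments of transient contacts, 44.8 in those of 0h and 48h alone and 42.4 in those of all 4 lists. The PU.1 motif GAGGAAGT gave 6.54, 6.37 and 6.93, the AP-1 motif 30.7, 31.3 and 31.7, and the motif of the B cell factor EBF1 2.77, 2.12 and 2.51. The core motif of CTCF, which bounds chromatin loops, gave 1.38, 0.97 and 1.25, with GC content moving alongside. These values were shared with contacts of the 0h, 1h and 12h lists, whose far fragments had 39.5 C/EBP, 3.07 EBF1 and 1.36 CTCF matches per 100 kb. In the 300-base promoters, a C/EBP match was present in 8.05% of 2881 promoters of genes with a transient contact, 8.29% of 6938 promoters of genes with contacts but no transient one and 10.8% of all 32851 promoters. PU.1 matches stood at 3.37%, 3.33% and 3.20%, AP-1 matches at 4.65%, 4.79% and 7.81%, EBF1 matches at 1.21%, 0.81% and 0.90%, CTCF matches at 2.67%, 2.28% and 1.28%, and matches to the E2F motif TTTCCCGC at 2.33%, 2.03% and 1.07%.

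RNA was then set beside the contacts. Of the genes in the RNA table, 5336 had a start on a bait with a transient contact, and 3185 of these were among the 16412 genes tested, the other 2151 having a mean under 0.1 TPM. Values are TPM divided by a median-of-ratios size factor (scaled TPM), since between 70.3% and 82.9% of the deposited TPM of a library fell on the rRNA locus. A gene was called at a limma adjusted p under 0.05 with a log2 fold change beyond 1. Nothing says that the replicates were separate cultures beyond their naming as biological replicates, and p-values measure the spread between these libraries.

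One comparison set the mean of 1h and 12h, the times of the transient contacts, against the mean of 0h and 48h. A call in it does not require a peak or dip in the middle. Rrm2, with mean scaled TPM of 26.3 (0h), 28.6 (1h), 3.21 (12h) and 0.305 (48h), was called higher. Mmp12, with 0.0079, 0.073, 2.33 and 711, was called lower. In this comparison 131 genes with a transient contact were higher (4.11%) and 128 lower (4.02%). Over all genes tested 3.35% were higher and 4.05% lower, 7.4% in either direction, and among the 7533 tested genes with promoter contacts but no transient one 3.07% and 4.54%. The median log2 difference was 0.04 for genes with a transient contact and 0.08 over all genes tested. The class of 1 transient contact, 1907 genes, had 3.51% higher and 4.77% lower, and the class of 2 to 4 had 5.18% higher and 2.99% lower. At 1h against 0h, 128 rose and 112 fell (4.02% and 3.52%, against 4.09% and 2.81% of all genes, 6.9% in either direction). At 12h against 0h, 373 rose and 368 fell (11.7% and 11.6%, against 12% and 9.37%, together 21.4%). At 48h against 0h, 544 rose and 694 fell (17.1% and 21.8%, against 19.7% and 17.5%, together 37.2%). Genes with promoter contacts and no transient one rose and fell in 2.95% and 3.70% of cases at 1h, 10.6% and 11.7% at 12h and 17.4% and 21.5% at 48h. Of the 140 tested genes with 5 or more transient contacts, 17 rose and 33 fell at 48h (12.1% and 23.6%), and 5 were higher and 3 lower in the mean of 1h and 12h (3.57% and 2.14%). The differences between these classes were not tested, and shares of this size beside the background are no result about genes with transient contacts as a group.

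The split by direction depended on the scale. With TPM as deposited the median log2 change of all genes shifted to 0.59 (1h, 0.02 on the scaled values), 0.34 (12h, 0.07 when scaled) and -0.18 (48h, 0.08 when scaled), and the contrast of middle against end times went to 0.67 in place of 0.08. The members' calls then became 482 higher and 36 lower at 1h (15.1% and 1.13%, against 16.7% and 1.08% of all genes) and 528 and 212 at 12h (16.6% and 6.66%, against 17.7% and 5.76%). They became 368 and 918 at 48h (11.6% and 28.8%, against 13.5% and 23.1%) and 658 and 51 in that contrast (20.7% and 1.60%, against 19.2% and 1.91%). On the scaled values again, of the 560 tested genes that held the 870 contacts without a nearby contact at either end, 26 were higher (4.64%) and 19 lower (3.39%) in the mean of 1h and 12h, beside 3.35% and 4.05% of all genes.

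**Figure D4:**
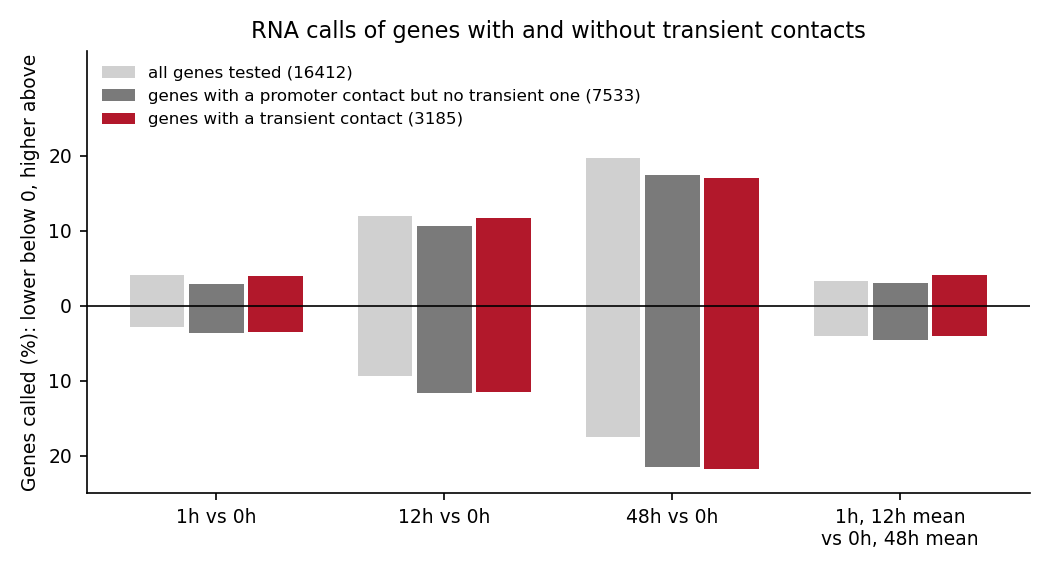
Percentage of genes called higher (above 0) or lower (below 0) in each of 4 RNA comparisons (x axis), for all genes tested, genes with a promoter contact but no transient one, and genes with a transient contact (red). The red bar of higher genes stands above the dark grey one at 1h (4.02% and 2.95%), at 12h (11.7% and 10.6%) and in the mean of 1h and 12h (4.11% and 3.07%), and at 48h the order is turned (17.1% and 17.4%). It stands below that of all genes at 1h (4.09%) and 12h (12%). The red class had a median of 23 contacts and the dark grey class 7. When genes were binned by contacts, the order at 1h was turned only among genes with 40 or more (4.44% and 6.60%).

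The 20 tested genes with most transient contacts are described next, with genes that share exactly the same baits, such as Alg12 with Creld2 and Cep95 with Ddx5, counted once. Genes that share only some baits, Cpsf3 with Itgb1bp1 and 4732471J01Rik with Lipe, were each counted, so the 20 are not separate sets of contacts. None of the 20 was called at 1h, where 6.9% of all genes were, and 2 fell at 12h (Mrpl52, a mitochondrial ribosomal protein, and Fignl1, a DNA repair ATPase), where 9.37% of all genes fell, and 2 rose and 7 fell at 48h, beside 19.7% and 17.5% of all genes. These counts are too small to set apart from the background. One was higher in the mean of 1h and 12h, Creld2. The median log2 fold change of the 20 was -0.20 (1h), 0.17 (12h) and -0.24 (48h).

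Creld2 had scaled TPM of 2.34, 3.11 and 3.01 (0h), 4.06, 2.81 and 4.74 (1h), 4.41, 4.20 and 5.53 (12h) and 1.20, 2.16 and 0.825 (48h). All libraries of 12h exceeded those of 0h and 48h, while the 1h and 0h libraries overlapped. The mean of 1h and 12h was higher by 1.10 ± 0.22 (SE) on the log2 scale (limma adjusted p = 0.0053), whereas 1h against 0h gave 0.42 ± 0.31 (adjusted p = 0.44) and 48h against 0h -1.05 ± 0.31 (adjusted p = 0.015). Without the third 48h library the difference was 0.95, under the fold threshold. The fall at 48h was also lost without that library (-0.75), the first 48h library (-0.98) or the second 0h library (-0.99).

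Cpsf3 had 9.68, 9.80 and 7.94 (0h), 6.51, 4.75 and 5.90 (1h), 7.17, 4.81 and 5.65 (12h) and 5.49, 3.63 and 4.21 (48h). The 0h libraries were all above the others, and the gene fell by 1.04 at 48h (SE 0.20, limma adjusted p = 0.0014). That fall was under the fold threshold without the second 48h library (-0.89) and at it without the second 0h library. Its change of -0.67 at 1h missed the threshold (limma adjusted p = 0.060). Itgb1bp1, which overlaps Cpsf3 on the opposite strand so that their reads may not be told apart, changed by 0.85 at 48h (limma adjusted p = 0.031), short of the fold threshold. Ddx5 was high and changed little, with means ± SD of 94.1 ± 3.3 (0h), 91.2 ± 7.5 (1h), 82.9 ± 8.5 (12h) and 98.9 ± 8.3 at 48h (n = 3 libraries each). The 1h libraries of Ddx5 overlapped those of every other time, while its 12h libraries (85.5, 89.6 and 73.4) lay below those of 0h and 48h. The change at 12h was -0.19 ± 0.12 (SE, limma adjusted p = 0.27). Its log2 change at 1h was -0.05 ± 0.12 (SE).

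Cdc37 fell at 48h only among the comparisons with 0h, from 12.8, 13.7 and 14.3 to 3.68, 8.52 and 7.55 (log2 -1.12 ± 0.25, limma adjusted p = 0.0030). Without the first 48h library the change was -0.73, under the fold threshold. Tbrg4, a mitochondrial RNA regulator with 9 transient contacts, fell at 48h by 1.74 (SE 0.16). Lipe, the hormone-sensitive lipase with 11, rose by 1.28 ± 0.26 at 48h, and its 1h libraries (0.822, 0.602 and 0.716) lay below those of 0h (1.51, 1.15 and 1.07) without passing the test (limma adjusted p = 0.11). Cmip, an adaptor of signalling in T cells with 11, changed by 0.66 ± 0.17 at 12h and 0.76 ± 0.17 at 48h, both under the fold threshold.

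Genes with a transient contact and RNA high in the middle were chosen by size of change among those whose libraries did not overlap. The first was Ang, which encodes the ribonuclease angiogenin. It was listed at 0, 0 and 0.190 (0h), 1.79, 1.28 and 1.67 (1h), 1.58, 1.64 and 2.20 (12h) and 0.384, 0.628 and 0.133 (48h), a difference of 2.83 ± 0.34 on the log2 scale (limma adjusted p = 0.00019). Rnase4, a ribonuclease gene that overlaps Ang and shares its bait, rose at 1h as well (3.00 ± 0.16), but stayed high at 48h (14.6, 15.7 and 13.1 against 13.0, 13.0 and 12.1 at 12h). Their bait had 1, 7, 1 and 1 contacts in the 4 lists, and the transient one joined it to Ccnb1ip1 296 kb away with 8 read pairs at 1h and 4 at 12h. Both genes lie on the same strand, and how reads in their overlap were divided between them is not known. With 0h libraries at 0, the size of Ang's difference depends on the pseudocount.

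Adam19, a membrane metalloprotease, had 1.35, 1.30 and 1.31 (0h), 3.38, 2.68 and 3.17 (1h), 3.29, 3.30 and 3.82 (12h) and 0.128, 0.265 and 0.426 (48h). It was higher in the middle by 2.25 ± 0.19 (limma adjusted p = 1.5e-05), and its transient contact lay within its own intron, 61.2 kb from the bait, with 20 read pairs at 1h and 15 at 12h. Ptgir, the prostacyclin receptor, had 0.630, 1.15 and 0.748 (0h), 6.88, 7.23 and 7.69 (1h), 5.05, 5.41 and 5.84 (12h) and 2.25, 2.89 and 4.27 (48h), so it was highest at 1h in every library. The remaining increases in this comparison were Ap3s1, an adaptor of vesicle sorting (1.82 ± 0.19), Lrrk2, a kinase of the endolysosomal system (1.78 ± 0.10), and Socs2, a suppressor of cytokine signalling (1.52 ± 0.27).

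The largest decrease in the middle was Ccnd1, cyclin D1, with 14.6, 20.2 and 22.8 (0h), 1.79, 1.98 and 3.02 (1h), 7.45, 7.77 and 6.29 (12h) and 34.7, 34.7 and 36.6 at 48h (-2.67 ± 0.15, limma adjusted p = 1.4e-06). Its 2 transient contacts lay 321 and 356 kb away, and its baits had 38, 28, 41 and 26 contacts, so the 1h list was not its fullest. Pou2f2, the B cell factor Oct-2, had 2.17, 2.21 and 1.72 (0h), 0.167, 0.0981 and 0.219 (1h), 0.750, 0.404 and 0.621 (12h) and 1.71, 1.40 and 1.98 (48h). Of its 6 transient contacts, 4 were in Dedd2 and Gsk3a, at 71.8 to 108 kb. Plac8 (-2.42 ± 0.18), Gimap4 (-2.24 ± 0.26), Hoxb8 (-2.06 ± 0.13) and Ctss, the lysosomal protease cathepsin S (-2.06 ± 0.10), were also lower. Hoxb8 and Gimap4 stayed low at 48h. Hoxb8 had means of 21.4 (0h), 2.77 (1h), 1.66 (12h) and 4.07 (48h), and Gimap4 had 4.75, 0.786, 0.361 and 1.66. For Plac8 and Ctss the 48h libraries were the highest, and Ctss had 6.85, 8.31 and 6.53 (0h), 3.70 ± 0.42 (1h), 5.14 ± 0.29 (12h) and 49.2, 50.2 and 42.6 (48h). The named genes went in both directions because the largest increases and the largest decreases were both picked.

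At 1h against 0h the largest increase after Ang was Atp6v0a1, a subunit of the vacuolar proton pump. It had 1.90, 2.55 and 1.78 (0h), 25.1, 25.3 and 22.4 (1h), 46.6, 53.7 and 40.7 (12h) and 156, 157 and 132 (48h), and the groups did not overlap. Its bait had no contact at 50 kb to 1 Mb at 0h, 6 at 1h, 2 at 12h and none at 48h. The transient pair reached a fragment across the annotated end of the gene at 52.9 kb, with 38 and 22 read pairs, and one at Cntnap1 at 169 kb, with 15 and 11. RNA was thus highest in the libraries of 48h, when neither contact was listed. Ptgir (3.00 ± 0.24), Ncf1, a subunit of the phagocyte oxidase (2.82 ± 0.15), and Spsb1 (2.78 ± 0.50) were the other increases. The decreases at 1h were Rab3a (-3.20 ± 0.28), Pou2f2 (-3.05 ± 0.27), Ccnd1 (-3.04 ± 0.21), Il21r (-3.03 ± 0.24), Hoxb8 (-2.91 ± 0.19) and Foxo1 (-2.60 ± 0.18).

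At 12h the largest increases were Il1rn, the interleukin-1 receptor antagonist, the chemokine Ccl9 (7.41 ± 0.41), Sema4a, from 0, 0.174 and 0.107 to 13.3, 12.4 and 16.7, and Ncf1 (5.67 ± 0.15), with Mmp8 and Id1, both listed at 0 throughout the 0h libraries. Il1rn had 0.0775, 0 and 0.0238 (0h), 0.533, 0.432 and 0.317 (1h), 86.8, 82.8 and 79.1 (12h) and 217, 222 and 180 (48h). Its transient contact was 233 kb away, with 13 and 11 read pairs, while the 48h list held the adjoining fragment. Mmp8, the neutrophil collagenase, had 0.199, 0.177 and 0.211 (1h), 7.58, 5.25 and 5.08 (12h) and 57.9, 60.5 and 37.5 (48h). Id1, an inhibitor of basic helix-loop-helix factors, was highest at 12h (4.30, 4.32 and 5.41), with 0.224, 0.419 and 0.786 at 48h. The decreases were Dtl (-4.28 ± 0.28), Gfra1 (-4.22 ± 0.43), Bach2 (-4.22 ± 0.49), Gm20402 on the bait of Foxo1 (-4.21 ± 0.79), Txnrd3 (-3.83 ± 0.23) and mmu-mir-3535, which was listed at 0 throughout the 12h libraries.

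At 48h the largest increases were Mmp12, the macrophage elastase, Il1rn, Ifi202b, Mmp13, Thbs1 and Mmp8. Mmp12 had 0, 0 and 0.0238 (0h), 0.0450, 0.0981 and 0.0754 (1h), 2.55, 2.35 and 2.09 (12h) and 784, 803 and 545 (48h). Its transient contact ended 109 kb away at Mmp3, with 15 read pairs at 1h and 18 at 12h, and its bait had 12, 17, 59 and 51 contacts. Fold changes of genes that start near 0 depend on the pseudocount and are not given for Il1rn, Sema4a and these genes. The decreases included replication genes. Rrm2, the ribonucleotide reductase subunit, fell by 6.15 (SE 0.31), from 29.4, 25.1 and 24.5 to 0.0959, 0.447 and 0.373, and the histone genes Hist1h3g and Hist1h2ai had 54.4 ± 5.3 and 119 ± 40 at 0h against 0.572 ± 0.51 and 0.512 ± 0.89 at 48h. Hist1h2af, Gm44367 and Gm10146 were listed at 0 in all 48h libraries. Histone genes have near-identical copies, so their values are uncertain.

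**Figure D5:**
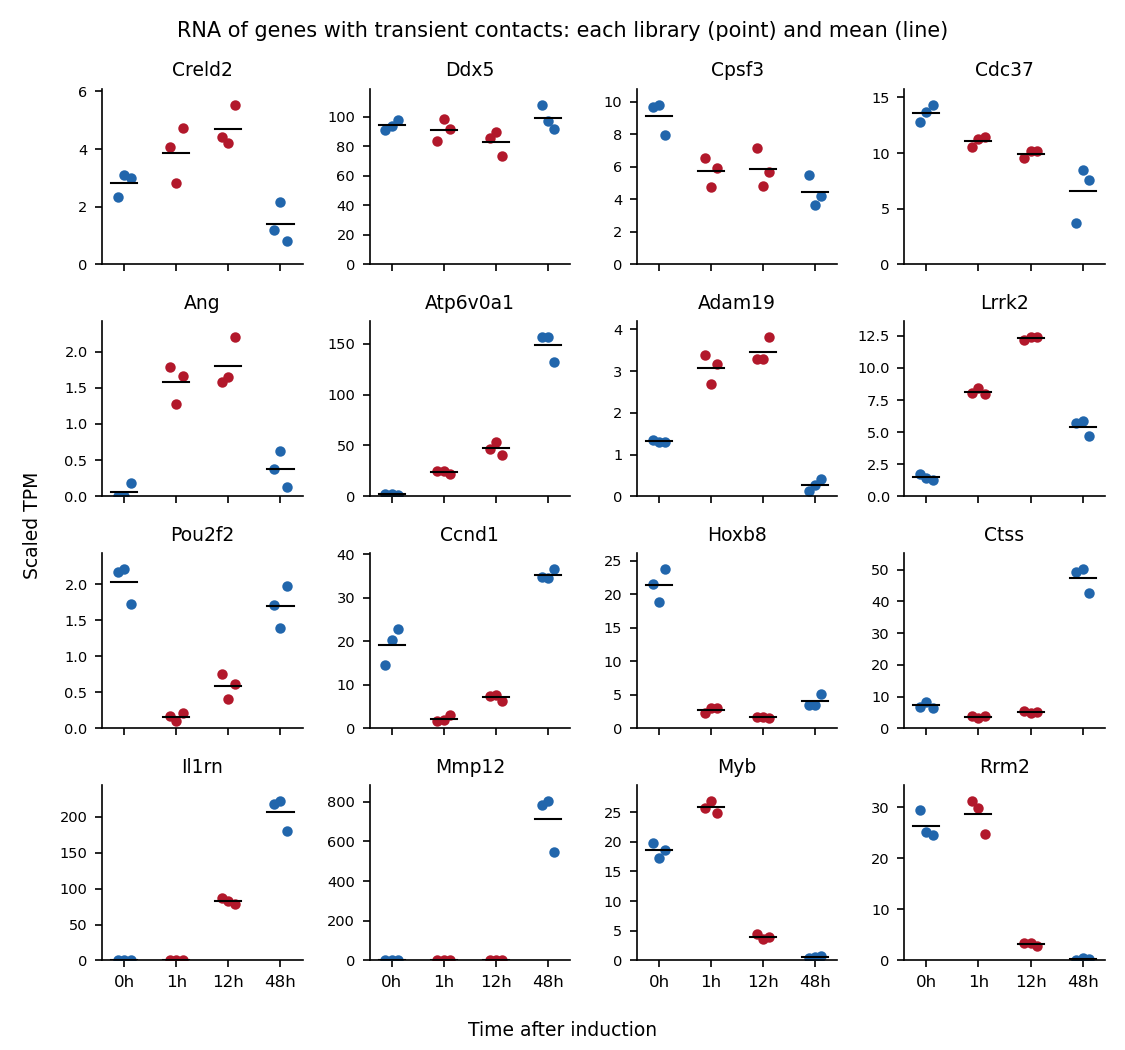
Scaled TPM (y axis) of each library at each time point (x axis) for 16 named genes with transient contacts, with points for the 3 libraries of a time point (red at 1h and 12h, blue at 0h and 48h) and a line for their mean. Ang, Adam19 and Lrrk2 are highest at 1h and 12h, Pou2f2 and Ccnd1 are lowest then, and Ddx5 stays between 73 and 108.

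Of 113 tested genes with a bait in 9 gene groups, 29 had a transient contact (25.7%), beside 29.7% of all tested genes with a bait. Their calls at 1h, 12h and 48h stand beside 4.09%, 12% and 19.7% of all genes that rose and 2.81%, 9.37% and 17.5% that fell. Of 15 tested genes of the Pre-B cell and its receptor, 2 had one, Blnk and Cd72, adaptor and surface protein of B cell receptor signalling. Both fell at 1h and at 12h. Cd72 had 13.7 ± 3.5 (0h), 3.82 ± 0.60 (1h), 1.64 ± 0.69 (12h) and 5.53 ± 0.28 (48h), and Blnk, at -0.46 ± 0.23, was not called at 48h. Of 13 B-lineage transcription factors, 5 had 15 transient contacts between them: Bach2 with 5, Myb with 4, Foxo1 with 3, Ikzf1 with 2 and Tcf3 with 1. Of these, 4 fell at 1h, 4 at 12h and all 5 at 48h. The fall of Bach2 at 1h (limma adjusted p = 0.047) was lost when any library of 0h or 1h, the first of 12h or the second of 48h was left out, with adjusted p of 0.063 to 0.16. Myb, a factor of proliferating progenitors, had 1h values of 25.7, 26.9 and 24.8 against 19.8, 17.3 and 18.7 (0.47 ± 0.18, limma adjusted p = 0.13), before falling to 4.03 ± 0.36 at 12h and 0.582 ± 0.18 at 48h. Of its transient contacts 3 lay in Ahi1, at 177 to 184 kb, and 1 in Hbs1l on the other side.

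Of 11 C/EBP and myeloid factors, Cebpb had 3 transient contacts and Runx1 and Id2 1 each. All 3 rose at 48h, 2 at 12h and Runx1 alone at 1h (1.25 ± 0.17). Cebpb, a relative of C/EBPα, had 2.90 ± 0.052 (0h), 4.92 ± 0.69 (1h), 13.7 ± 2.2 (12h) and 23.1 ± 11 (48h), and its contacts all lay between genes, at 103 to 190 kb. Of 15 macrophage surface and phagocyte genes, 5 had one: Csf1r, the receptor of CSF-1, Fcgr1, Cd68, Ncf1 and Ncf4. At 1h Ncf1 rose and Cd68 fell by 1.02, 3 rose at 12h and 4 at 48h, with Ncf4 not called. The change of Cd68 went under the fold threshold (-0.89 to -0.98) without the first or second 0h library, the second 1h library or the third. Csf1r had 0.304 ± 0.17 (0h) and 0.360 ± 0.27 (1h), then 8.42 ± 0.32 (12h) and 26.6 ± 3.6 (48h). Its pair of transient contacts lay between genes on both sides, with 21 and 42 read pairs at 1h.

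Of 9 granule and lysosome genes, Ctss, Mmp8 and Mmp12 had transient contacts, and all 3 rose at 48h. Among chemokines, Ccl3, Ccl6 and Ccl9 had them. Ccl3 and Ccl9 rose at 1h, and all 3 rose at 12h and at 48h. Of 16 immediate early and AP-1 genes, Jun, Ier2, Ier5 and Dusp6 had them. At 1h the only call among these was a fall of Ier5 (-1.97 ± 0.32), and Jun, at 5.08 ± 0.62 at 0h and 4.51 ± 0.32 at 1h, rose at 48h to 39.2 ± 3.3. Dusp6, a phosphatase of ERK signalling with 5 transient contacts, rose at 48h too (1.30 ± 0.13). Of 11 cell cycle genes, Ccne1 and Cdk4 had transient contacts and fell at 48h. Of 13 chromatin architecture genes Hdac7, a histone deacetylase, alone had one, and it fell at 1h (-2.18 ± 0.21) and stayed low.

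In the mean of 1h and 12h against the mean of 0h and 48h, 2 of the 29 genes were higher, Myb and Ncf1, and 10 lower, beside 3.35% and 4.05% of all genes tested. Neither of the higher genes peaked at both middle times. Myb was lower at 12h (4.03) than at 0h (18.6), and Ncf1 was higher at 48h (17.3) than at 1h (3.66). Among the lower genes, Blnk, Cd72, Foxo1, Ier5 and Ctss had lower means at 1h and 12h than at 0h and 48h. Fcgr1, Mmp12, Ccl6, Cd68 and Jun did not, and their highest mean was at 48h. The gene lists were chosen with earlier results of these data known, so the counts are a description.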

How the data were processed

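RNA-seq had 12 libraries, 3 for each of 0h, 1h, 12h and 48h, and PCHi-C had 4 lists, each pooled by the authors from 2 replicates. The authors' processing notes name Trim Galore 0.6.2, FastQC, HISAT2 2.1.0, RSEM and HOMER on mm10. The deposited RNA values are TPM, made by the authors with RSEM after technical replicates were merged, and TPM keeps no depth, so the depth behind each value is unknown. The 0h list holds the CHiCAGO interaction score as deposited, with 5 as its lowest value. In the 3 later lists the deposited files give whole numbers with no unit named, read here as counts of read pairs. The same number stood in both directions in 8082 of 8082, 9184 of 9184 and 8515 of 8517 pairs of baits. The score and the counts were not compared with each other. Hi-C libraries were not used here.

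A bait was the first fragment of a pair in any list. Each member pair was counted once. TPM was divided by median-of-ratios size factors (0.625 to 1.56), because the rRNA locus took a varying share of each library, and tested as log2(value + 0.1) for the 16412 of 55450 genes with a mean of at least 0.1 TPM. The fit used limma 3.58.1 in R 4.3.3 over all 12 libraries, with moderated statistics, a trend and Benjamini-Hochberg adjustment over all genes tested. Fold changes are on that log2 scale, which understates the change of low genes. Genes were called at an adjusted p under 0.05 and a log2 change beyond 1. Contacts and sequences were handled in Python 3.11.15 with pandas 2.3.3, numpy 2.4.6 and pysam 0.24.0. Promoter sequences are from RefSeq on GRCm38.p6.

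Named genes were the 20 tested genes with most transient contacts (of genes with exactly the same baits only the one with the highest mean TPM), the 6 largest increases and 6 largest decreases in each RNA comparison among genes with a transient contact, a mean of at least 1 TPM and libraries that did not overlap, and genes of 9 lists with a transient contact. Named contacts came from the 10 with most read pairs, among all and among those with no neighbour within 10 kb, and from the 10 most shared fragments. The members, lists and tests were chosen with earlier results of these data known. Alternatives were another pseudocount, filter, scale, fold threshold, definition of the contacts, a replicate block and leaving out each library. A few genes of the lists and at the far ends of contacts are not reported here.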

Additional observations from a re-analysis of the deposited data

How the results depend on the processing

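The number of contacts was 6511 and changed to 870 when a 0h or 48h contact of the same bait within 10 kb counted as presence, and to 12371 when only 0h scores of at least 10 counted as present. The other definitions gave 6488, 6529 and 7940. Genes with a transient contact called at 1h, 12h, 48h and in the mean of 1h and 12h against the mean of 0h and 48h numbered 240, 741, 1238 and 259. With a pseudocount of 1 they numbered 119, 418, 797 and 95, with a log2 change beyond 2 they numbered 53, 228, 537 and 45, and for the 560 genes of the stricter contacts 39, 124, 211 and 45. TPM as deposited gave 518 at 1h and 709 in the last comparison. Leaving out 1 library at a time gave 184 to 255, 672 to 759, 1184 to 1284 and 238 to 270.

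The replicate numbers did not meet the rule for pairing: deviations from the group mean correlated above 0.1 in 7 of 18 pairs with the same number (median 0.0796, against -0.0629 for other numbers), and 7 of 12 libraries correlated best with their own number, a hint from the data and not the design. The third library had the lowest rRNA share at each time point (70.3% to 76.9%). With the replicate number as a block the counts were 236, 743, 1250 and 256. For named genes, 123 called changes gave 2335 values under the alternatives, of which 2245 kept direction and side of the threshold, 90 were no longer called and none reversed. A log2 change beyond 2 ended 42 calls, a pseudocount of 1 and TPM as deposited 10 each, leaving out 1 library 21 in all, and the replicate block none. For contacts, pooled lists give no replicate error, and a contact below the calling threshold is counted as absent. For RNA, depth is unknown.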
